A study of Rattus norvegicus with 50 samples.

Results

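Mucins and airway secretory proteins were followed in the lungs of rats that had breathed titanium dioxide (TiO2). The set held 10 genes, namely the mucins Muc1, Muc4, Muc5ac, Muc5b, Muc16 and Muc20, the secretoglobins Scgb1a1, Scgb3a1 and Scgb3a2, and Pigr, the polymeric immunoglobulin receptor. Its members were the gene spots of the array that carried one of these names. Of the 10 genes, 8 had such a probe, 12 probes in all, and all 8 entered the tests among the 25208 genes tested. No probe carried the name Muc4 or Muc5b. Probes that the array annotation describes as mucin 4 and mucin 5B transcripts are given separately, and were not counted as members.

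The animals were male F344 rats, an inbred laboratory strain, aged 12 weeks. Exposed rats breathed TiO2 P25 nanoparticles at 10 mg/m3 through the nose only, for 6 h per day on 5 days per week during 4 weeks, and control rats breathed filtered air. Lungs were taken from 5 control and 5 exposed rats at the end of exposure (D0), and from as many of each after 3 days (D3), 28 days (D28), 90 days (D90) and 180 days (D180). RNA came from the whole accessory lobe, 100 ng per rat, with 1 array per rat. In such bulk samples, fewer cells of a type and less RNA per cell cannot be told apart.

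Mucins are long, heavily glycosylated proteins. Muc5ac and Muc5b are secreted and form the mucus gel of the airways, whereas Muc1, Muc4, Muc16 and Muc20 are anchored in the membrane of epithelial cells. Secretoglobins are small secreted proteins, of which Scgb1a1 is the classical product of club cells, the secretory cells of the small airways. Pigr carries polymeric IgA across the epithelium and is released with it as secretory component. Goblet cells, which store gel-forming mucins, are rare in the healthy rat lung, and interleukin-13 is a known driver of their appearance.

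A microarray reports the RNA that binds one short probe, so the probe sequences are shown for the genes on which the results turn. They come from the annotation columns of the array, with positions on the rat build rn4. For Pigr and the mucin 4 transcript, different probes gave different answers. Capitals mark the longest run that holds A and G only.
Muc20, chr11:69814089-69814148, plus strand: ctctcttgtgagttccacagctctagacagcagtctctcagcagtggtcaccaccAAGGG
Mucin 4 transcript, chr11:69830461-69830520, minus strand: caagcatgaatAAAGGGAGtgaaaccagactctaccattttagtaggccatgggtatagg
Mucin 4 transcript, second probe, chr11:69856056-69856115, minus strand: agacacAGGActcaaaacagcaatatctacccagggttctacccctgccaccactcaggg
Muc1, chr2:181402014-181403312, plus strand: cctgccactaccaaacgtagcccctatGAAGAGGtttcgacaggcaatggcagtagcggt
Muc16, chr8:16560743-16562176, minus strand: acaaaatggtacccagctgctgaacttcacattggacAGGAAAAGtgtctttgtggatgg
Muc16, second probe, chr8:16602558-16602617, minus strand: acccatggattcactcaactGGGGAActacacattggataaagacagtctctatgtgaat
Pigr, probe used, chr13:43804820-43804908, plus strand: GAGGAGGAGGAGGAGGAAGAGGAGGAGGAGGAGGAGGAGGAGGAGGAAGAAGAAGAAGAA
Pigr, second repeat probe, chr13:43804765-43804863, plus strand: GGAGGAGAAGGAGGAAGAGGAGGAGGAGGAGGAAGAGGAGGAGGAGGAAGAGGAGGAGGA
Pigr, last repeat probe, chr13:43804790-43804852, plus strand: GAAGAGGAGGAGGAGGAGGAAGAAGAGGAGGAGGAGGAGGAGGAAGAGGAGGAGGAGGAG
Pigr, probe outside the repeat, chr13:43802502-43802936, plus strand: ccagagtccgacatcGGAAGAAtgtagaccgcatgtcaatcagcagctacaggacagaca
Every probe is 60 bases long, so a longer interval is a probe that crosses a splice junction or a gap in the alignment. The probe for Muc20 and the first for mucin 4 lie close together on chromosome 11 and on opposite strands, and Muc20 and Muc4 are direct neighbours in the RefSeq annotation of GRCr8, with 0 genes between them. The 3 repeat probes of Pigr hold A and G at all 60 positions.

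The 50 arrays had a median processed signal of 198 to 473 and 68.7% to 84.5% of gene spots well above background. Arrays of one group correlated at 0.973 to 0.996 across genes. The arrays lay on 7 slides, each of which held control and exposed rats, and D0, D3 and D28 were hybridised on other slides than D90 and D180, apart from 1 exposed rat of D3. All 8 marker genes of alveolar type 2 cells were detected in every group. Values below are quantile normalized log2 signals, changes are exposed minus control on that scale (mean difference with its standard error, SE), and a gene was called when it changed at least 1.5-fold with an adjusted p under 0.05 (limma with Benjamini-Hochberg adjustment over all genes tested). The labels do not say that the rats of a group were housed or exposed apart, so p-values measure the spread between these animals.

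By the probe of highest signal, the members called were membrane mucins. At D0, 2 of the 8 genes were called, both higher in exposed lungs (Muc1 and Muc20), where 4.23% of all genes were called and 2.71% were called higher. At D3, 3 were called, Muc1 and Muc20 higher and Muc16 lower, against 3.56% of all genes, 2.07% higher and 1.5% lower. Muc20 was the 1 member called at D28 (1.35% of all genes), at D90 (0.381%) and at D180 (0.349%). The median change over the 8 members was 0.11 at D0 and 0.22 at D3, beside -0.01 and 0.01 over all genes. No secretoglobin and no gel-forming mucin was called on any day.

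**Figure D1:**
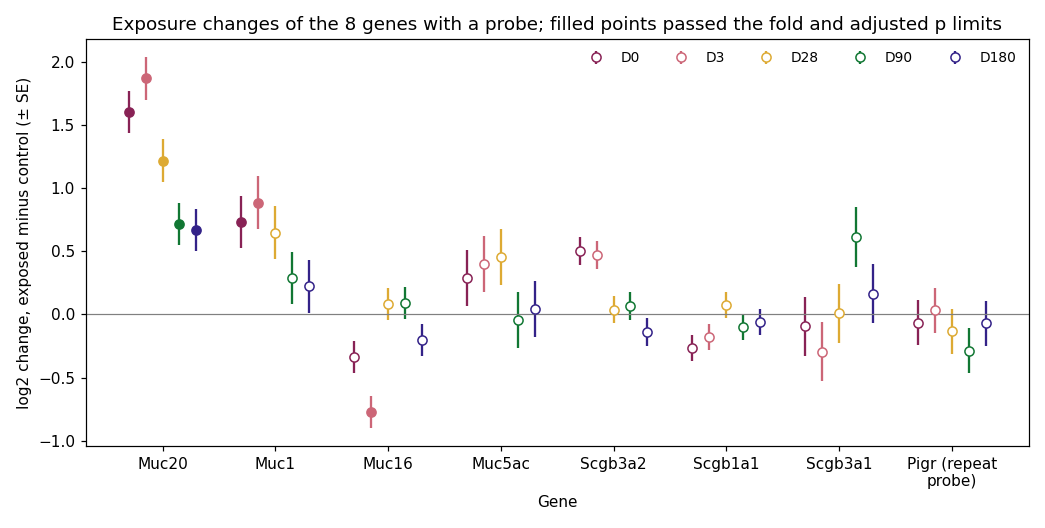
The log2 change of each of the 8 genes with a probe (exposed minus control, ± SE, 5 rats per group) is plotted for the 5 collection days, with filled points for changes that passed the fold and adjusted p limits. Muc20 is filled on all 5 days, Muc1 at D0 and D3, and Muc16 at D3 on the lower side.

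Muc20, a small membrane mucin first known from kidney, showed the largest and longest change of the set. At D0 the 5 control lungs read 5.29, 4.91, 4.84, 5.31 and 5.55, and the 5 exposed lungs read 6.71, 6.85, 6.58, 6.84 and 6.94. At D3 the controls read 5.59, 4.74, 5.47, 5.25 and 5.19 against 6.98, 7.09, 7.14, 7.02 and 7.36 after exposure. All exposed rats lay above all control rats on both days, and groups were apart in this way, in either direction, for 8.63% of all genes at D0 and 7.05% at D3. Muc20 was over-expressed 3.03-fold at D0 (1.60 ± 0.17, adjusted p = 6.64e-10) and 3.65-fold at D3 (1.87 ± 0.17, adjusted p = 2.26e-11).

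The distance then narrowed. At D28, control values of Muc20 ran from 4.63 to 5.41 and exposed values from 6.05 to 6.71, still without overlap (3.76% of all genes), a 2.33-fold difference (1.22, adjusted p = 2.57e-06). At D90 the controls read 5.02, 5.11, 4.60, 5.35 and 5.53 and the exposed rats 5.46, 5.53, 6.05, 6.09 and 6.06, so that the groups overlapped. The change was 1.64-fold there (0.72, adjusted p = 0.0173). At D180 the controls ran from 5.16 to 5.44 and the exposed rats from 5.70 to 6.21, again apart, with a 1.59-fold change (0.67, adjusted p = 0.0323). The change was smaller than at D0 by 0.88 at D90 (adjusted p = 0.0199, where 2.18% of all genes were called) and by 0.93 at D180 (adjusted p = 0.0122, where 2.29% were called), while the test against D0 gave adjusted p = 0.536 at D28.

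Ordered by mean level, the Muc20 groups ran from exposed D3 (7.12) through exposed D0 (6.78), D28 (6.34), D180 (5.97) and D90 (5.84) to the 5 control groups, which lay between 5.12 and 5.30 and did not differ from their neighbours beyond their SD. Exposed D90 and D180 also differed by less than their SD. Muc20 was higher in exposed rats on every slide that held both groups, by 1.28 to 2.10 at D0, 1.43 to 2.39 at D3, 0.82 to 1.51 at D28, 0.19 to 0.95 at D90 and 0.50 to 0.95 at D180. The control signals were weak: the probe was well above background on 2, 4, 3, 4 and 5 of the 5 control arrays from D0 to D180, and on all exposed arrays. With signals that kept more background, the change kept its direction but fell below the 1.5-fold limit from D28 on (0.49 at D28 with normexp correction, 0.56 with the series matrix), and leaving out 1 array ended the call in 5 of 10 fits at D90 and 8 of 10 at D180.

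**Figure D2:**
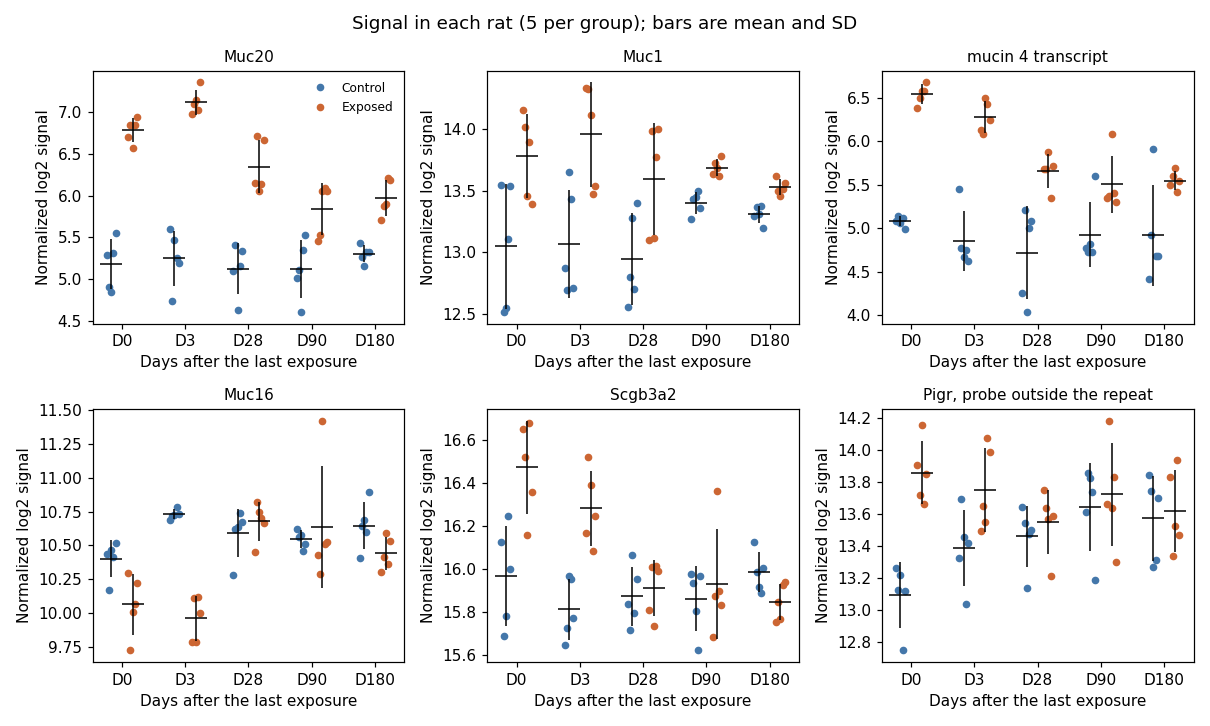
Normalized log2 signal of each rat (points, 5 per group, control in blue and exposed in orange, bars for mean and SD) is plotted against collection day for Muc20, Muc1, the mucin 4 transcript, Muc16, Scgb3a2 and the Pigr probe outside the repeat. Exposed Muc20 values at D0 (6.58 to 6.94) and D3 (6.98 to 7.36) stand above all controls, whereas exposed Muc16 values dip at D3 (9.78 to 10.12).

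The mucin 4 transcript beside Muc20 changed in the same direction by its first probe. Muc4 is a large membrane mucin that can bind the receptor ErbB2. At D0 the control lungs read 5.09, 5.14, 5.05, 5.12 and 4.99, and the exposed lungs 6.38, 6.49, 6.58, 6.57 and 6.68. It was over-expressed 2.75-fold at D0 (1.46 ± 0.21, adjusted p = 6.93e-07), 2.69-fold at D3 (1.43, adjusted p = 1.76e-06) and 1.92-fold at D28 (0.94, adjusted p = 0.00356), with no overlap between groups on these days. At D90 (0.58, adjusted p = 0.264) and D180 (0.63, adjusted p = 0.175) it was not called. The probe was well above background on 1, 2 and 1 of the 5 control arrays at D0, D3 and D28, and on all exposed arrays. With normexp correction the change was 0.57 at D3 and 0.31 at D28, and with the series matrix 0.43 at D28, all under the fold limit, while fitting the D28 arrays alone gave an adjusted p of 0.145.

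The second probe of the mucin 4 transcript gave no call on any day. Its changes from D0 to D180 were -0.53, 0.35, -0.35, 0.25 and 0.10, and the exposed and control values overlapped each time. Averaging both probes left a change of 0.46 at D0 (adjusted p = 0.308) and 0.30 at D28 (adjusted p = 0.627), below the call, and 0.89 at D3 (adjusted p = 0.0216). The response attributed to mucin 4 therefore rests on 1 of its probes.

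Muc1, the membrane mucin of airway and alveolar epithelium whose cytoplasmic tail takes part in signalling, was higher in exposed lungs by a smaller amount. At D0 the controls read 13.55, 12.52, 12.55, 13.11 and 13.54, and the exposed rats 14.15, 14.02, 13.45, 13.90 and 13.39. At D3 the controls read 12.87, 12.70, 13.65, 13.43 and 12.71 against 14.33, 14.33, 14.11, 13.47 and 13.54. The groups overlapped on both days, yet the means differed 1.66-fold at D0 (0.73 ± 0.21, adjusted p = 0.0118) and 1.85-fold at D3 (0.89 ± 0.21, adjusted p = 0.00251). The D0 call was lost without control replicate 2 or without control replicate 3 (adjusted p up to 0.0628 when 1 array was left out), and fitting the arrays of each day alone ended the call at D0 (adjusted p = 0.157) and at D3 (adjusted p = 0.0964).

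Most of the spread of Muc1 within groups followed the slide. The group accounted for 53.6% of its variance over the 50 arrays and the slide for a further 44.3%, beside 2.89% for Muc20. Within each slide the exposed rats were higher at every day, by 0.61 to 0.94 at D0, 0.60 to 0.84 at D3, 0.36 to 0.59 at D28, 0.22 to 0.31 at D90 and 0.21 to 0.26 at D180. With slide as a block the change was 0.78 at D0 (adjusted p = 1.08e-14), 0.71 at D3 (adjusted p = 1.01e-12), 0.47 at D28 (adjusted p = 2.47e-08), 0.29 at D90 (adjusted p = 0.000258) and 0.22 at D180 (adjusted p = 0.00715). The last 3 stayed under the 1.5-fold limit.

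Without the block, Muc1 differed by 0.65 at D28 (adjusted p = 0.0678), 0.29 at D90 and 0.22 at D180 (adjusted p = 1 for both), and was not called. At D90 the controls ran from 13.27 to 13.50 and the exposed rats from 13.62 to 13.78. At D180 they ran from 13.20 to 13.38 and from 13.46 to 13.62. Exposed and control rats did not overlap on these late days, as was the case for 3.92% of all genes at D90 and 4.13% at D180. In the order of mean levels all 5 exposed groups (13.53 to 13.96) stood above all 5 control groups (12.95 to 13.40), but no neighbouring exposed groups differed beyond their SD.

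Muc16 was lower in exposed lungs, and called at D3. Muc16, which carries the CA125 antigen, is a large membrane mucin of the airway surface and of the mesothelium that covers the lung. At D3 the 5 controls read 10.68, 10.72, 10.73, 10.79 and 10.73, and the exposed rats 9.79, 10.11, 9.78, 10.12 and 10.00. No exposed rat reached the lowest control. Muc16 was under-expressed 1.70-fold (-0.77 ± 0.13, adjusted p = 2.14e-05), and it was lower on 4 of 4 slides.

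The second probe, in another part of the gene, gave a 2.10-fold lower signal at D3 (-1.07, adjusted p = 2.16e-05 over single probes, of which 3.5% were called), also without overlap (5.09 to 6.00 against 6.21 to 6.95 in controls). At D0 the change of Muc16 with the probe used was -0.34 (adjusted p = 0.0718, not called, lower on 4 of 4 slides). The second probe was higher on 2 of these 4 slides, with changes from -0.42 to 0.03. At D28, D90 and D180 the probe used changed by 0.09, 0.09 and -0.20, none called. The D3 controls were themselves higher than the D0 controls, by 0.33 with the probe used (adjusted p = 0.12, no overlap, as for 5.87% of all genes) and by 0.69 with the second probe (adjusted p = 0.00861, among 2.21% of single probes called). The change at D3 was not shown to differ from that at D0 (-0.43, adjusted p = 0.359).

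Mesothelial marker genes moved with Muc16 at D3. Of 6, 2 were called lower, as were 1.5% of all genes. They were the uroplakin Upk1b (-0.63, adjusted p = 2.13e-05, no overlap) and the transcription factor Wt1 (-0.70, adjusted p = 0.0134). Upk3b (-0.58, adjusted p = 0.0182) stayed under the fold limit, and Lrrn4 (-0.41), mesothelin Msln (-0.29) and Calb2 (-0.13) were not called. Calb2 was not well above background on any of the 10 arrays. With normexp correction 1 of the 6 was called at D3, with the series matrix 2 and with 75th percentile scaling 3. The mean log2 level of the list ran from 8.98 to 9.41 in D3 controls and from 8.66 to 8.83 in exposed rats. The part of these cells in the Muc16 result was not tested.

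**Figure D3:**
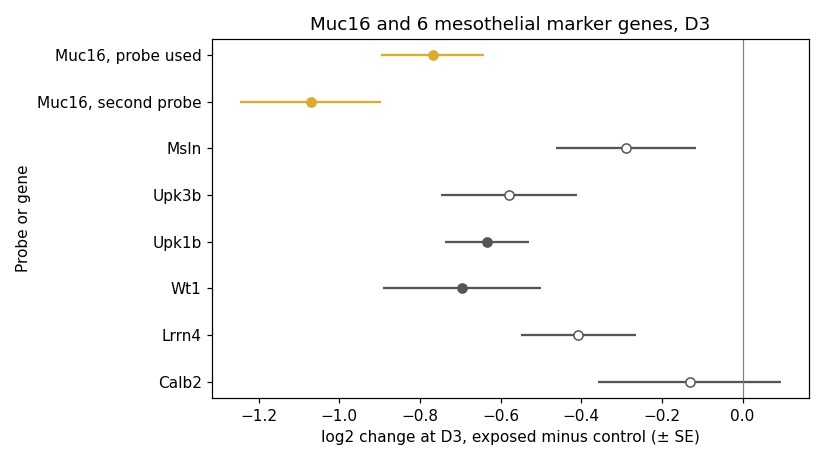
The log2 change at D3 (exposed minus control, ± SE, 5 rats per group) is plotted for the 2 Muc16 probes in yellow and 6 mesothelial marker genes in grey, filled where called. Both Muc16 probes, Upk1b and Wt1 are called on the lower side, and the other 4 markers also lie below 0.

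The gel-forming mucins were at the limit of the array. Muc5ac, the main mucin of goblet cells, was not well above background on 49 of the 50 arrays, the exception being 1 exposed rat of D28. Its signals ran from 2.47 to 4.16, its changes from -0.04 to 0.46, and the lowest adjusted p was 0.291, at D28. The mucin 5B transcript, chr1:201992377-201992436, was not called on any day (0.30, 0.62, 0.77, 1.75 and 0.65 from D0 to D180, the 1.75 at D90 with adjusted p = 0.136).

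The D90 value of the mucin 5B transcript came largely from 1 animal. The exposed rats read 4.23, 4.85, 8.99, 4.82 and 4.89, and the controls 3.51 to 4.22. Without rat 3 the change was 0.90 (adjusted p = 0.709). Rat 3 stood 4.29 above the mean of the other 4 exposed rats, the fifth largest excess among the 25208 genes, of which 1.09% exceeded by 1 or more. In the same lung the goblet cell proteins Clca1 (11.61 against 7.61 to 8.49 in the other exposed rats), Itln1 (5.64 against 2.40 to 3.23) and Agr2 (11.16 against 9.29 to 9.62) were also high, as was the secreted Bpifb1 (13.90 against 11.32 to 11.84). Spdef was higher by a small margin (10.86 against 10.55 to 10.80). Fcgbp (6.52 against 6.35 to 6.83) and Tff3 (3.30 against 2.71 to 4.52) lay within the range of the other exposed rats. The median excess of 28 goblet cell program genes was 0.145. Among members, Muc16 read 11.42 there, beside 10.29 to 10.53 in the other exposed rats, and Scgb3a1 read 13.99, beside 12.86 to 13.53.

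**Figure D4:**
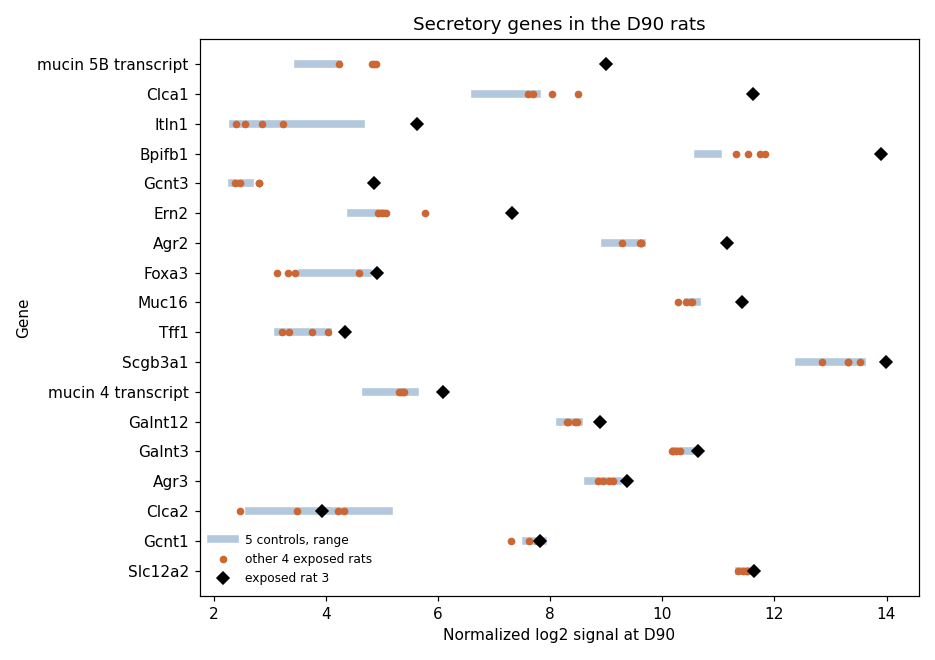
Normalized log2 signal at D90 is plotted for 18 secretory genes, with the range of the 5 controls as a bar, 4 exposed rats as orange points and exposed rat 3 as a black diamond. The diamond lies far to the right for the mucin 5B transcript (8.99), Clca1 (11.61) and Itln1 (5.64), and near the other rats at the foot of the plot.

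Secretoglobins changed little. Scgb3a2, which is made by airway secretory cells, was higher in exposed lungs at D0, where the controls read 16.13, 15.69, 15.78, 16.25 and 16.00 and the exposed rats 16.65, 16.52, 16.16, 16.68 and 16.36. At D3 the controls ran from 15.65 to 15.97 and the exposed rats from 16.09 to 16.52, without overlap. The differences of 0.50 at D0 (1.42-fold, adjusted p = 0.000733) and 0.47 at D3 (1.38-fold, adjusted p = 0.00219) passed the adjusted p and missed the fold limit (13.5% and 10.7% of all genes passed the adjusted p). With 75th percentile scaling the D0 change was 0.60 and called.

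From D28 on the exposed and control values of Scgb3a2 overlapped, with changes of 0.04, 0.07 and -0.14. The change at D180 was 0.64 below that at D0 (adjusted p = 0.00696), and this difference between days was called. Scgb1a1 read from 17.05 to 17.84 over all arrays and differed by -0.26 at D0 (adjusted p = 0.0912) and by -0.18, 0.07, -0.10 and -0.06 on the following days. It was lower in exposed rats within all 4 slides at D0 and at D3. Scgb3a1 differed by -0.09, -0.29, 0.01, 0.61 and 0.16 from D0 to D180, and its 0.61 at D90 had an adjusted p of 0.345.

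Club cell markers that are not secretoglobins did not move as one. Of 5 tested at D0, Gabrp and Cldn10 (0.89) were called higher and the P450 Cyp2f4 (-0.71) lower. Gabrp read 3.62 to 4.72 in controls, well above background on 1 of 5 arrays, and 5.86 to 6.43 in exposed rats. The mean level of the list ran from 9.96 to 10.27 in D0 controls and from 10.38 to 10.55 in exposed rats, and without Gabrp from 11.55 to 11.68 and from 11.51 to 11.58. Its part in the secretoglobin values was not tested. Among 8 ciliated cell markers Tekt2 was called higher at D0 (0.83) and D3 (0.65), and 0 of 6 basal cell markers were called on any day. Of 8 alveolar type 2 markers 0 were called on any day, but 1 was called at D0 with 75th percentile scaling, with normexp correction and with the series matrix. The mean level of that list ran from 16.28 to 16.42 in D0 controls and from 16.56 to 16.63 in exposed rats, and the groups were also apart at D3 and D28. Its part in the Muc1 values was not tested.

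Pigr gave different values by probe. The probe used, the brightest of 4, changed by -0.07, 0.03, -0.13, -0.29 and -0.07 from D0 to D180 and was not called. It is 1 of 22 probes on the array that hold A and G only, 3 of them for Pigr. Over the 50 arrays, after slide means were taken out, its signal correlated at 0.763 to 0.972 (median 0.916) with the 19 such probes named for other genes, at 0.957 with their mean (0.918 without the 2 farthest arrays) and at 0.177 with the Pigr probe outside the repeat (0.288 without them). These points share arrays, and the values are a description.

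The Pigr probe outside the repeat was higher in exposed than control lungs at D0. The controls read 13.27, 13.13, 13.22, 12.75 and 13.12 and the exposed rats 13.91, 13.72, 14.16, 13.67 and 13.85, all above the controls. The change was 1.70-fold (0.76 ± 0.15, adjusted p = 0.000309 over single probes, of which 4.14% were called), and 0.63 to 1.04 within the 4 slides. It was 0.36 at D3 (adjusted p = 0.143) and 0.09, 0.08 and 0.05 on the later days, with overlap each time, and the D180 change was 0.72 below that at D0 (adjusted p = 0.0498). The D0 controls had the lowest mean of all 10 groups (13.10), beside 13.39 to 13.65 in the other control groups and 13.86 in exposed D0, and the D3 controls were 0.29 above them (adjusted p = 0.322). With this probe standing for Pigr, 3 members were called at D0.

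**Figure D5:**
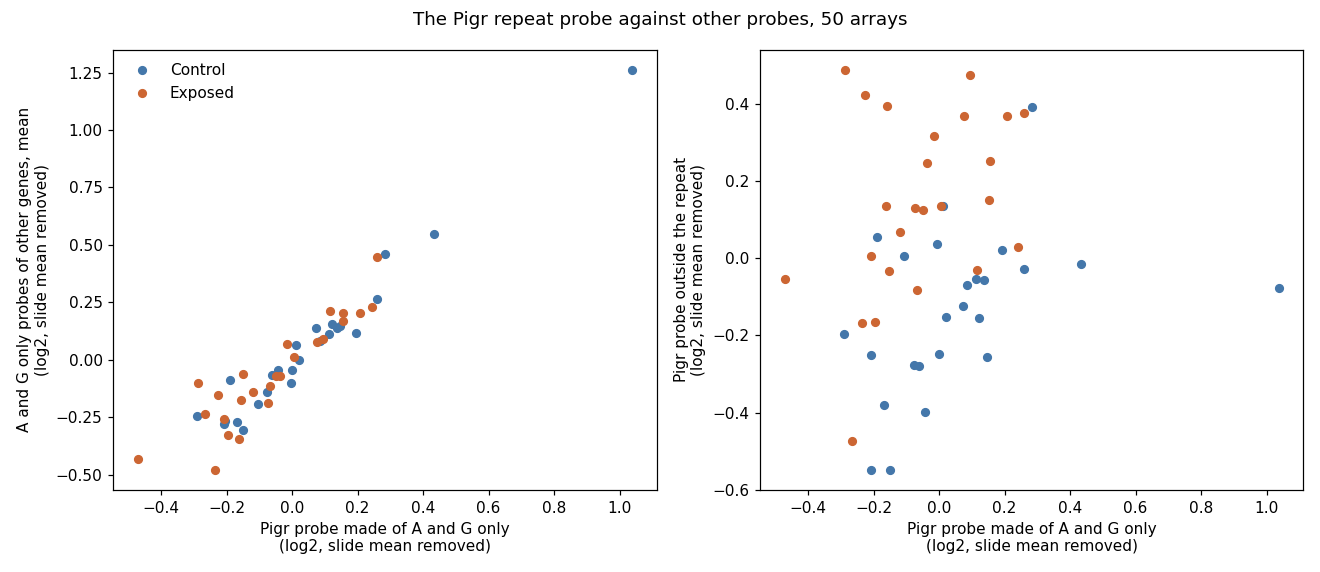
Each point is 1 of 50 arrays (control in blue, exposed in orange), on log2 scales with the slide mean removed, with the Pigr probe made of A and G only on the x axis. On the left the y axis is the mean of 19 such probes named for other genes (r = 0.957), and on the right it is the Pigr probe outside the repeat (r = 0.177).

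Control rats served as a check on age and collection day. None of the 8 members was called between D3 and D0 (2.32% of all genes), between D28 and D3 (0.659%) or between D180 and D90 (0.0198%) by limma, with 1, 0 and 1 members under an unadjusted p of 0.05. The changes with exposure did not separate D3 or D28 from D0 for any member (0.682% and 1.63% of all genes called), with 1 and 3 members under an unadjusted p of 0.05.

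Members that rose after exposure varied together over the arrays. With slide means taken out, Muc1 and Muc20 correlated at 0.91 over 50 arrays, Muc20 and the mucin 4 transcript at 0.869, and Muc1 and Scgb1a1 at -0.708. The 3 genes most like Muc20 were complement C3 (0.946), the cystine transporter Slc7a11 (0.945) and Cd177 (0.942), and among those most like Muc1 were Cd177 (0.958) and Pck2 (0.958). Muc16 was most like Upk1b (0.926), Gpm6a (0.89) and Msln (0.882). All arrays share the exposure contrast in these values, which are given as a description.

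Cd177 is a neutrophil surface protein, and neutrophil markers moved with the exposure in part. Of 6 such genes, S100a8 (1.38 at D0, 1.58 at D3) and S100a9 (1.70 on both days) were called, and S100a9 remained called at D28 (0.89). The other 4 were not called at D0 or D3, and the median change of the 6 was 0.26 at D0 and 0.49 at D3. The mean level of the 6 ran from 9.77 to 10.42 in D0 controls against 10.33 to 10.77 in exposed rats. At D3 it ran from 9.55 to 10.21 against 10.44 to 10.55. The part of these cells in the Muc1 and Muc20 values was not tested.

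A part of the genes linked to goblet cells and mucin assembly was higher at D0. Of 28 genes of the goblet cell program and mucin assembly, 5 were higher at D0, 1 at D3 and 0 from D28 on, none lower. Over all genes, 2.71% were called higher at D0 and 2.07% at D3. The chloride channel Cftr rose by 0.95 at D0 (adjusted p = 1.11e-09) and by 0.59 at D3, the ER stress sensor Ern2 by 1.08 (adjusted p = 0.00795), the transcription factor Foxa3 by 1.37 (adjusted p = 0.0295) and the disulfide enzyme Qsox1 by 0.82 at D0. Intelectin Itln1 was well above background in 0 control and 3 exposed lungs at D0, at least 2.2-fold higher on this scale (adjusted p = 0.00236), with a change of 0.32 after normexp correction and 0.43 in the series matrix. With normexp correction or the series matrix 2 of the 28 were called at D0. Foxa3 was well above background on 1 control and 2 exposed arrays of D0, and its groups overlapped. Its change was 0.23 with normexp correction and 0.33 with the series matrix, and missed the adjusted p limit (0.138 and 0.0576). Ern2 was well above background on 2 control arrays of D0. Its change was 0.39 with normexp correction and 0.53 with the series matrix, both under the fold limit.

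Classical goblet markers were not called on any day, among them Spdef (0.11 at D0), Agr2 (0.26), Tff2 (0.11), Fcgbp (-0.01) and Clca1 (1.00, adjusted p = 0.16). In no group was Tff2 well above background on most arrays. Of 5 other mucins tested, Muc2, Muc3, Muc13, Muc15 and endomucin Emcn, none was called on any day. In the exposed rats of D90, Muc2, Muc13 and Muc15 read 2.36 to 2.80, as low as Muc5ac. Muc3 read 2.33 to 4.40 there and Emcn 11.59 to 11.77. The median change of the 28 goblet program genes at D0 was 0.12, beside -0.01 over all genes.

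Among other secreted airway proteins, Lcn2 and Bpifb1 were over-expressed. Of 16 tested, 2 were higher at D0 and D3, 1 at D28 and D90 and 0 at D180. Over all genes, 4.23%, 3.56%, 1.35%, 0.381% and 0.349% were called from D0 to D180. The iron-binding lipocalin Lcn2 was over-expressed 9.35-fold at D0 (3.23, adjusted p = 1.43e-15), and 2.47 on the log2 scale at D3. Bpifb1, a secreted protein of airway epithelium and glands, read 9.90 to 10.84 in D0 controls and 12.86 to 13.40 in exposed rats. It was over-expressed 6.15-fold at D0 (2.62, adjusted p = 1.08e-10), and the change was 2.40 at D3, 1.32 at D28 and 1.26 at D90. The D90 change was 0.80 without exposed rat 3 (adjusted p = 0.00758).

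Genes of B cells and plasma cells rose in small numbers. The list was made for the IgA that Pigr carries, and of its 12 genes 8 were tested. Neither the IgA heavy chain (Igha) nor the J chain (Jchain, Igj) was among these 8, so IgA itself was not measured. Of the 8, 2, 1, 1, 2 and 0 were called from D0 to D180, beside 4.23%, 3.56%, 1.35%, 0.381% and 0.349% of all genes. With normexp correction 1, 1, 0, 0 and 0 were called, with the series matrix 1, 1, 0, 1 and 0, and with 75th percentile scaling 0 at D90. Tnfrsf17, the plasma cell receptor BCMA, was 1.81-fold higher at D0 (0.85, adjusted p = 0.00333) and Cd79b, a B cell receptor chain, 1.60-fold (0.68, adjusted p = 0.0208). The plasma cell chaperone Mzb1 rose by 0.79 at D3 (adjusted p = 0.000242).

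Signals known to act on mucin genes were partly higher. Of 30 cytokine and EGFR pathway genes, 4 were higher and 1 lower at D0, 5 higher and 1 lower at D3, and 1 higher at D28, where 4.23%, 3.56% and 1.35% of all genes were called. With normexp correction and with the series matrix 2, 5 and 0 of the 30 were called. Il13, the cytokine of goblet cell formation, ran from 2.45 to 4.53 in D0 controls and from 4.16 to 6.17 in exposed rats (1.96, adjusted p = 0.000645), and was well above background on 1 of 5 control and 5 of 5 exposed arrays. The Il13 change was 0.71 with normexp correction and 0.86 with the series matrix, both called. Its decoy receptor Il13ra2 was lower (-0.74, adjusted p = 0.0415), but was not called with normexp correction or the series matrix. Tnf was 3.42-fold higher at D0 (1.77, adjusted p = 3.54e-08). Il17a at D28 was well above background in 0 control and 1 exposed lung (adjusted p = 0.0239), and was not called with normexp correction (0.40, adjusted p = 0.055) or the series matrix (0.45, adjusted p = 0.071).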

How the data were processed

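The authors deposited 50 one-colour Agilent files. Per the file headers, they hold spot intensity on a linear scale from Agilent Feature Extraction 11.0.1.1, with background and spatial trend removed in the processed signal and no scaling between arrays. The authors' series matrix (58753 rows) held median intensity, quantile normalized, by comparison with the scanner values, which leaves its stated scale unknown.

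Groups came from the labels. Outlier and non-uniform spots were masked (324 to 872 per array), intensities were log2 transformed and quantile normalized, and spots of a probe were averaged. Of 30367 probes, 29549 exceeded the 95th percentile of 308 negative control spots on at least 5 arrays. Each gene was represented by its probe of highest mean signal (25208 genes). A mean per each of 10 groups was fitted with limma 3.58.1 in R 4.3.3, with empirical Bayes and Benjamini-Hochberg adjustment over all genes, and the procedure was tested on simulated data. No depth applies, so the 5 arrays per group limit precision.

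Every member is named, together with the 3 genes of largest change among those called in each pathway list and the 3 genes most correlated with each called member, apart from 1 that is not reported here. Cftr, Qsox1, Bpifb1 at later days, Il13ra2 and the genes of the D90 lung were added after their values were seen. The members and lists were chosen with earlier results of these data known. Alternatives covered scaling, background correction, the series matrix, filters, probe choice, slide, scan day and replicate number as blocks, the arrays fitted, the call limit and each array left out. Replicate numbers were not used as pairs: of 25 same-numbered pairs, 8 correlated above 0.1 (range -0.352 to 0.462).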

Additional observations from a re-analysis of the deposited data

Results flagged for a closer look

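In 13 of 110 groups of 5 rats checked, 1 rat stood far from the other 4, where chance marks about 1 group in 20. Exposed rat 3 of D90 was far above its group for the mucin 5B transcript (8.99, nearest 4.89), the mucin 4 transcript (6.09, nearest 5.40) and Muc16 (11.42, nearest 10.53). Without it the Muc16 change at D90 was -0.11, in place of 0.09. Pigr by its repeat probe read 17.53 in control rat 5 of D28 (nearest 16.78), and by its probe outside the repeat 12.75 in control rat 4 of D0 (nearest 13.12).

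The mucin 4 transcript read 5.45 in control rat 1 of D3 and 5.59 in control rat 5 of D90, both above their groups. Muc5ac read 4.01 in control rat 4 of D28 and 3.39 in exposed rat 2 of D180, none of these well above background. Muc16 read 10.28 in control rat 1 of D28, below its group. Scgb1a1 was high in exposed rat 1 of D0 (17.67) and exposed rat 2 of D3 (17.63), and both rats lay on slide 1. Scgb3a1 was low in control rat 1 of D3 (12.80).

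The effect of exposure differed between days by limma for Muc20, by -0.88 at D90 (adjusted p = 0.0199) and -0.93 at D180 (adjusted p = 0.0122) relative to D0, and for Scgb3a2 by -0.64 at D180 (adjusted p = 0.00696).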

How the results depend on the processing

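Of 510 tests of single genes under the alternatives, 458 kept their direction and their side of the call limits, and 170 of 203 counts of called genes stayed within 1.5 times. With 75th percentile scaling 2 members were called at D28 and 0 at D180. Normexp background correction and the series matrix each left 0 members called at D28, D90 and D180, 0 for D90 minus D0 and 1 for D180 minus D0. Fitting only the arrays of the days compared left 1 member at D0, 0 at D90 and 0 for D90 minus D0, and ended the Muc1 call at D3 (adjusted p = 0.0964). Counting the mucin 4 and 5B transcripts as members gave 2 at D28. Over all genes, 1066, 898, 341, 96 and 88 were called from D0 to D180. Normexp gave 578, 479 and 146 from D0 to D28 and 52 at D180, the matrix 662, 539, 166 and 55, the slide block 153 at D90 and 139 at D180, the days alone 547 at D3 and 124 at D28, and the adjusted p alone 3397, 2692, 1015, 275 and 252. At D3, 58% of calls were higher, against 71.0% with normexp and 68.5% with the matrix.

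Changes near 0 turned sign. Pigr at D0 became 0.030 with 75th percentile scaling, 0.17 with the mean of its probes, 0.031 with the slide block, 0.00023 with the scan day block and 0.76 by its probe outside the repeat, which gave 0.090, 0.079 and 0.045 at D28, D90 and D180. Pigr at D3 became -0.024 (slide) and -0.013 (scan day), and the outside probe at D180 -0.030 and -0.013. At D28, Scgb1a1 became -0.010 (75th percentile), -0.010 (slide) and -0.0030 (scan day), Scgb3a1 -0.0034 (75th percentile), -0.023 (matrix), -0.11 (slide) and -0.11 (scan day), Scgb3a2 -0.017 (slide) and -0.018 (scan day), and Muc16 -0.033 with the mean of its probes. Scgb3a1 at D0 became 0.060 (scan day). Muc5ac became -0.52 (75th percentile), -0.032 (normexp) and -0.048 (matrix) at D180, and 0.014 and 0.023 with the last 2 at D90. The cause was not tested. The scan day block, the outside probe, the counting of transcripts, the club cell list without Gabrp and the D90 fits of Bpifb1 and the mucin transcripts without exposed rat 3 were chosen after seeing the data.

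Leaving out 1 array at a time gave 1 to 2 members at D0 (1 without control 2 or 3), 1 to 2 at D28 (2 without control 5, exposed 1 or exposed 3), 0 to 1 at D90, 0 to 1 at D180, 0 to 1 for D90 minus D0 (0 without D0 control 2 or 3, D90 control 5 or D90 exposed 1) and 1 to 2 for D180 minus D0 (1 without D0 control 2). Over all genes at D28 it gave 250 to 538, the latter without exposed 1. Muc1 ran from 0.60 to 0.86 at D0 and 0.55 to 0.77 at D28, and Muc20 from 0.59 to 0.82 at D90, 0.61 to 0.74 at D180 and -1.01 to -0.78 for D90 minus D0. Scgb3a2 ran from -0.72 to -0.57 for D180 minus D0, -0.0016 to 0.086 at D28 and -0.039 to 0.13 at D90. The mucin 4 transcript ran from 0.50 to 0.87 at D180, called without control 3. Scgb3a1 ran from -0.27 to 0.035 at D0 and -0.087 to 0.13 at D28, Muc5ac from -0.091 to 0.0012 at D90 and -0.12 to 0.19 at D180, and Muc16 from -0.11 to 0.17 at D90. Pigr ran from -0.16 to 0.038 at D0, -0.045 to 0.15 at D3 and -0.20 to 0.026 at D28, and its outside probe from -0.037 to 0.19 at D90 and -0.034 to 0.12 at D180.

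With the replicate number as a block, which the numbers do not justify, the member counts were 2, 3, 1, 1 and 1 as without it, and 1037 genes were called at D0. The Muc20 change at D0 stayed 1.60 (adjusted p = 2.49e-08). Of the 25 pairs, 7 correlated best with their own number. Contrasts between control days could not be fitted with this block. A stricter filter on dim probes kept 20559 genes and 7 members, without Muc5ac.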

Other observations

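Exposed rat 3 of D90 had high values for further secretory genes. Relative to the mean of the other 4 exposed rats it was higher by 3.66 for the goblet cell protein Clca1, 2.87 for Itln1, 2.29 for Bpifb1, 2.25 for the mucin glycosyltransferase Gcnt3, 2.12 for Ern2, 1.63 for the mucin chaperone Agr2 and 1.28 for Foxa3. Foxa3 read 4.91 in this rat, close to the highest of the other exposed rats (4.59) and of the D90 controls (4.75). Of the 28 genes of the goblet cell program, 14 had their highest exposed value in this rat, as had 21.2% of all genes. The mean level of goblet cell markers was 8.49 in this rat and 7.30 to 7.49 in the other exposed rats. Clca1 and Agr2 carried this difference, as the other 3 genes of that list stood apart by 0.17 (Spdef), -0.06 (Tff2) and -0.06 (Fcgbp). The mean level of basal cell markers was 8.41 against 7.52 to 7.85. The keratins Krt15, Krt17 and Krt14 were higher by 1.83, 1.69 and 1.23. The remaining genes of that list, Krt5 (-0.01), Tp63 (-0.02) and Ngfr (-0.30), were not higher. The accessory lobe was taken whole, and the share of airway in each sample was not recorded in the labels.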
